A study of Mus musculus with 2 samples.

Results

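Mir483, Mir675, Mir335, Mir296 and Mir298 are 5 of the 2202 annotated mouse miRNA genes counted here, chosen because each lies at an imprinted growth or signalling locus: Igf2, H19, Mest or the Gnas region. Their levels were read in small RNA libraries of adrenal gland from female B6CASTF1/J mice at 14 days, the F1 hybrid of C57BL/6J and CAST/EiJ. There is 1 group of 2 libraries, numbered as biological replicates 2 and 1, and no control or treated group. The label of replicate 2 names a single numbered female and that of replicate 1 speaks of 3x females, while both carry 1 donor identifier, so the spread between them may be technical or that of animals.

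An imprinted gene is transcribed mainly from the copy inherited from 1 parent, and several such genes set the pace of growth before and shortly after birth. Igf2, a fetal growth factor gene, and Mest are known to be expressed from the paternal copy, and the noncoding RNA gene H19 from the maternal copy. Igf2 and H19 share enhancers and a control region whose methylation decides which copy uses them, and in most mouse tissues Igf2, H19 and Mest are turned down after birth. The Gnas region encodes the G protein subunit through which the ACTH receptor of the adrenal cortex signals, and its antisense transcript Nespas, known in mouse as the source of Mir296 and Mir298, comes from the paternal copy. The deposited counts do not separate the B6 and CAST copies, so parental origin below is that known for the host and was not measured.

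The tables count reads per precursor hairpin, so a count may come from either arm. The mature arms are shown because their seeds, bases 2 to 8 in capitals, decide which messenger RNAs an arm can repress. The sequences are those of RefSeq on build GRCm38.p6, where all 5 genes had an entry with the same coordinates as in GENCODE M21.
mmu-miR-483-5p: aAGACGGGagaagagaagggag
mmu-miR-483-3p: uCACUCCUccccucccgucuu
mmu-miR-675-5p: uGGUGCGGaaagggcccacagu
mmu-miR-675-3p: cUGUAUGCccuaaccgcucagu
mmu-miR-335-5p: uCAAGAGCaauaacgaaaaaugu
mmu-miR-335-3p: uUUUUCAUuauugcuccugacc
mmu-miR-296-5p: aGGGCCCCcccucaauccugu
mmu-miR-296-3p: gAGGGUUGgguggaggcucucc
mmu-miR-298-5p: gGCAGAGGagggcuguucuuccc
mmu-miR-298-3p: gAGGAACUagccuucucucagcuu

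The 10 arms carry 10 different seeds, and 0 other miRNA genes of the RefSeq table share any of them. A seed held by a single gene is common in that table, at 68.0% of 1738 mature sequences. None of the 10 mature sequences occurs in another hairpin of the table. The 5 genes are thus grouped by locus and not by seed, and neighbours such as Mir296 and Mir298 have different seeds.

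Mir483 (ENSMUSG00000070140.1) lies at chr7:142654924-142654996 on the minus strand, in an intron of Igf2, and overlaps the protein-coding gene Gm49394 as well. Mir675 (ENSMUSG00000076275.1) lies at chr7:142577064-142577147 on the minus strand, in an exon of H19, 77776 bases from Mir483. Mir335 (ENSMUSG00000065501.1) lies at chr6:30741299-30741396 on the plus strand, in an intron of Mest. Mir296 (ENSMUSG00000065521.1), at chr2:174267047-174267125, and Mir298 (ENSMUSG00000065410.1), at chr2:174267504-174267585, are 378 bases apart on the minus strand. Both lie downstream of the annotated span of Nespas, which ends 14111 bases from Mir296 and 13651 bases from Mir298. The only other annotated miRNA gene within 100 kb of any of the 5 is Gm27591 near Mir296 and Mir298, with 0 counts in both libraries, which allows at most 0.596 CPM in replicate 2 and 0.790 CPM in replicate 1. CPM are counts on a gene scaled by the library's total over miRNA genes, and the limit stands for 3 counts.

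The hairpins of the Gnas pair and of Mir483, on which most of the differences below turn, are shown with their mature arms in capitals. The counts are per whole hairpin and do not show where within it the reads lie.
Mir296: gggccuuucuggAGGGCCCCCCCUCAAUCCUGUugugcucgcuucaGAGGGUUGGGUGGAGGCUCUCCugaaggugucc
Mir298: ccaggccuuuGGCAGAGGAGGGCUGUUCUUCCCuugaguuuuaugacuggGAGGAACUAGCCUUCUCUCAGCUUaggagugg
Mir483: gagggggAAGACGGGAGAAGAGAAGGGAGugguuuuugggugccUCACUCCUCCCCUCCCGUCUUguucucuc

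The hairpins range from 73 bases in Mir483 to 98 bases in Mir335. Mir335 had the lowest GC content, at 42.9%, against 58.9% in Mir483, 63.1% in Mir675, 63.3% in Mir296 and 53.7% in Mir298. Over the 309 of 358 detected miRNA genes with a RefSeq hairpin, the median GC content was 50.0%, with the middle 50% of genes between 43.5% and 55.9%. Mir483, Mir675 and Mir296 lay above that range and Mir335 below it.

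Replicate 2 held 5034257 counts on miRNA genes and replicate 1 held 3797107. Of these, the liver gene Mir122 alone held 1080041 in replicate 2 and 10996 in replicate 1. This lowers the CPM and shares of all other genes in replicate 2 relative to replicate 1. Detection was set at a minimum of 10 counts per library, which 358 genes met, all 5 of the imprinted genes among them. Reads with several mapping places, 2795730 in replicate 2 and 3002371 in replicate 1, had been left out of the gene counts before deposit. Levels of different miRNA genes are compared per read without division by length, since the reads come from RNAs of like size. Whether RNAs of different sequence were captured equally well was not measured, so orders of level are orders of reads. The 5 genes had 0 counts on the opposite strand in both libraries, and their counts without regard to strand were the same as on their own strand. In these bulk samples fewer cells of a type and less RNA per cell cannot be told apart. No miRNA listed here defines the adrenal cortex alone; the neuroendocrine genes Mir375, Mir7-1, Mir7-2 and Mir7b, which the medulla can express, were all detected and summed to 20169 CPM in replicate 2 and 38998 CPM in replicate 1.

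Mir335 in Mest was by far the most abundant of the 5 genes, and Mir675 in H19 the least. Mir335 is known in human breast cancer cells as a suppressor of metastasis. It had 31312 counts in replicate 2 and 53967 counts in replicate 1. Its share of miRNA counts was 0.622% in replicate 2, with a Wilson 95% interval of 0.615 to 0.629, and 1.42% in replicate 1, with one of 1.41 to 1.43. Such intervals cover counting error only. Mir335 was higher than any of the other 4 genes in both libraries, at rank 29 of the detected genes in replicate 2 and rank 18 in replicate 1.

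Mir298 at the Gnas region, known in mouse as a repressor of Bace1, came next. It had 4447 counts in replicate 2 and 7139 counts in replicate 1, or 883 CPM and rank 74 in replicate 2 and 1880 CPM and rank 57 in replicate 1. Its neighbour Mir296, known in mouse embryonic stem cells as a repressor of Nanog, had 2208 counts in replicate 2 and 924 counts in replicate 1. That is 439 CPM and rank 101 in replicate 2, and 243 CPM and rank 144 in replicate 1. Mir298 was the more abundant of the pair in both libraries.

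Mir483 in Igf2, known from human adrenocortical carcinoma, where it is raised together with IGF2, had 4278 counts in replicate 2 and 230 counts in replicate 1. It stood at 850 CPM and rank 75 in replicate 2, beside Mir298, and at 60.6 CPM and rank 214 in replicate 1, below both Gnas genes. Mir675, known in mouse placenta as a brake on growth made from the H19 transcript, had 31 counts in replicate 2 and 14 counts in replicate 1. Its level was 6.16 CPM in replicate 2, with a Wilson 95% interval of 4.34 to 8.74, and 3.69 CPM in replicate 1, with one of 2.20 to 6.19. It ranked 305 of the 358 detected genes in replicate 2 and 343 in replicate 1. The 2 intervals of its CPM overlap.

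By mean CPM the order was Mir335 at 10216 ± 5652, Mir298 at 1382 ± 705, Mir483 at 455 ± 558, Mir296 at 341 ± 138 and Mir675 at 4.92 ± 1.75 (SD, n = 2 libraries for each). The library values of Mir335 and Mir675 did not overlap with those of any other of the 5 genes. Mir298 lay above Mir483 in both libraries, but at 883 CPM and 850 CPM in replicate 2 they did not differ beyond counting error, with 0.962 counts of Mir483 for each of Mir298 (exact 95% interval 0.922 to 1.003). Mir483 and Mir296 changed places between the libraries, so their order rests on the library.

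**Figure D1:**
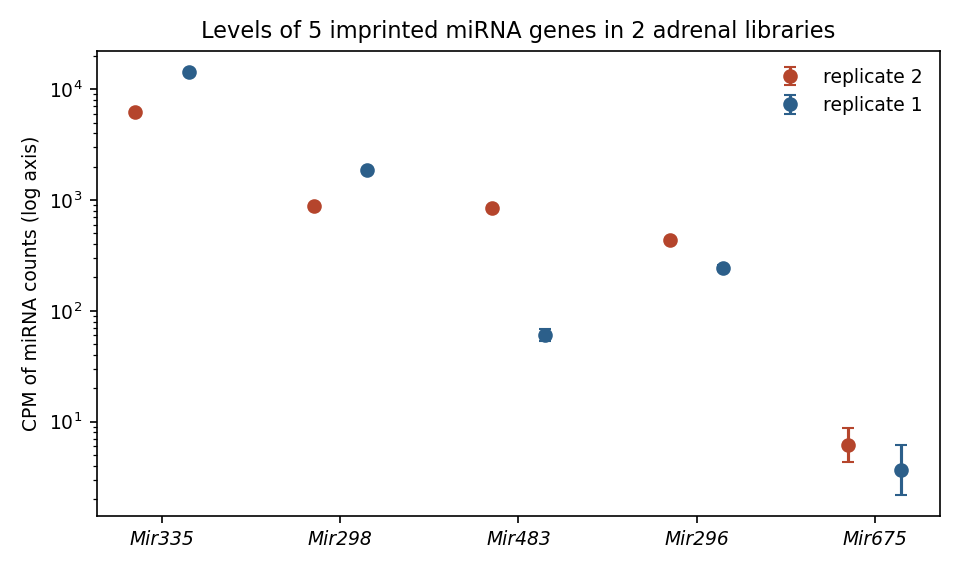
CPM of each gene (log axis) in replicate 2 (left point) and replicate 1 (right point), genes in order of mean CPM, with Wilson 95% counting intervals that are narrower than the points for most genes. Mir483 shows the widest gap, at 850 CPM in replicate 2 against 60.6 CPM in replicate 1, and Mir675 lies lowest in both libraries.

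Grouped by the parental copy that the host is known to use, the paternal genes held nearly all counts. Mir483, Mir335, Mir296 and Mir298 together held 0.839% of miRNA counts in replicate 2 and 1.64% in replicate 1, while the maternal Mir675 held 0.000616% in replicate 2 and 0.000369% in replicate 1. By locus, Mest held 1.02% ± 0.565, the Gnas region 0.172% ± 0.0566 and Igf2-H19 0.0460% ± 0.0560 (SD, n = 2). Within the Igf2-H19 locus, Mir483 had 138 counts for each count of Mir675 in replicate 2 (exact 95% interval 97.1 to 203) and 16.4 in replicate 1 (9.59 to 30.5). Mir483 was the more abundant in both libraries, and the intervals of this ratio did not overlap.

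Other imprinted loci put these levels in scale. The Dlk1-Dio3 locus, whose miRNA genes are known to be expressed from the maternal copy, has 67 annotated miRNA genes and held 3.88% of counts in replicate 2 and 6.18% in replicate 1. Its most abundant gene, Mir127, which lies antisense to the imprinted gene Rtl1, had 8273 CPM in replicate 2 and 12713 CPM in replicate 1, the same order of level as Mir335. Mir411 followed with 5468 CPM in replicate 2 and 13047 CPM in replicate 1, and Mir379 with 5617 CPM in replicate 2 and 10069 CPM in replicate 1. In replicate 2 Mir335, at 6220 CPM, stood between Mir127 and Mir379, and in replicate 1, at 14213 CPM, above all 3 of these genes.

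The 119 miRNA genes inside Sfmbt2, a locus known to be paternally expressed in mouse extraembryonic tissue, summed to 1038 CPM in replicate 2 and 1118 CPM in replicate 1. That sum is below the level of the single gene Mir298 in replicate 1 and above it in replicate 2. Of these 119 genes, 104 had 0 counts in both libraries. Many are numbered copies of like sequence, and reads that map to several of them were not counted, so their low counts do not show low levels. The most abundant were Mir467d, at 512 CPM in replicate 2 and 346 CPM in replicate 1, Mir467e, at 225 CPM in replicate 2 and 390 CPM in replicate 1, and Mir669c, at 144 CPM in replicate 2 and 139 CPM in replicate 1. Mir184, near the paternally expressed Rasgrf1, had 43.1 CPM in replicate 2 and 58.2 CPM in replicate 1. With these loci included, genes grouped as maternal held 3.88% of counts in replicate 2 and 6.18% in replicate 1. Those grouped as paternal held 0.947% in replicate 2 and 1.76% in replicate 1. The paternal sum takes in the Sfmbt2 genes, whose parental copy in adrenal was not measured. Their counts lack reads with several mapping places, so the 2 sums do not compare the output of the parental copies.

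The makeup of the 5 genes differed between the libraries. Mir335 made up 74.1% of their summed counts in replicate 2, within a Wilson 95% interval of 73.7 to 74.5, and 86.7% in replicate 1, within 86.4 to 86.9. Mir483 made up 10.1% in replicate 2 (9.84 to 10.4) and 0.369% in replicate 1 (0.325 to 0.420). Mir296 made up 5.22% in replicate 2 and 1.48% in replicate 1. Mir298 was close to level by this measure, at 10.5% in replicate 2 (10.2 to 10.8) and 11.5% in replicate 1 (11.2 to 11.7).

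**Figure D2:**
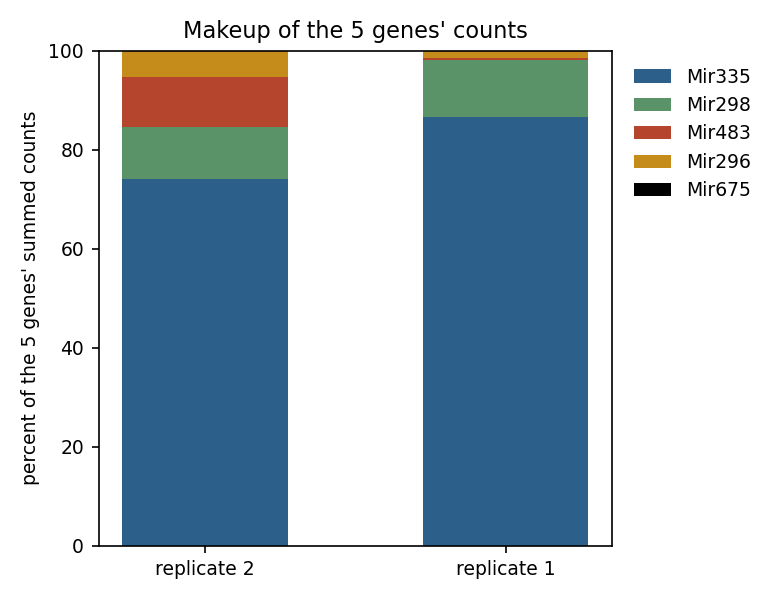
Stacked bars of each gene's percent of the 5 genes' summed counts, replicate 2 on the left and replicate 1 on the right. Mir335 fills 74.1% of the bar of replicate 2 and 86.7% of that of replicate 1, Mir483 fills 10.1% in replicate 2 against 0.369% in replicate 1, and Mir675 is too thin to see.

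Between the libraries, Mir483, Mir296 and Mir675 were higher in replicate 2, while Mir335 and Mir298 had negative log2 ratios that missed the fold threshold. Ratios are replicate 2 over replicate 1 after TMM scaling, which sets the bulk of genes level. A gene was called with an absolute log2 ratio of at least 1 and an adjusted p under 0.05, from an exact binomial test (two-sided) of the gene's counts in both libraries with Benjamini-Hochberg adjustment over all 358 detected genes. Of all detected genes, 33 (9.22%) were called higher in replicate 2 and 31 (8.66%) lower, 17.9% in either direction, while 67.9% passed the adjusted p alone. Of the 5 imprinted genes, 3 were called higher and 0 lower. The test compares the reads of 1 library with those of another, with no replicate on either side, and says nothing of a condition.

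Mir483 had the widest ratio of the 5, 4.24 on the log2 scale within a 95% counting interval of 4.05 to 4.44, or 18.9-fold higher in replicate 2, at place 4 from the top of the 358 detected genes. In edgeR's exact test its adjusted p was 0.00445, and 6 genes (1.68%) were called. That test takes its dispersion from the same 2 libraries that it compares, so it gives no independent support. Mir296 had a log2 ratio of 1.28 (1.17 to 1.39), or 2.43-fold higher, and Mir675 one of 1.14 (0.22 to 2.19). The adjusted p of Mir675 was 0.0172 in the exact binomial test. In edgeR's exact test, with the same limit, the adjusted p of both was 1, and neither was called when library totals replaced the TMM scaling, at log2 ratios of 0.85 for Mir296 and 0.72 for Mir675.

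The log2 ratio of Mir335 was -0.76, within a 95% counting interval of -0.78 to -0.74, and that of Mir298 was -0.66, within -0.71 to -0.61. Both differed beyond counting error and stayed under the fold threshold, and both were called lower with library totals, at -1.19 for Mir335 and -1.09 for Mir298. Over all detected genes the log2 ratios had a median of -0.06, with the middle 50% of genes between -0.51 and 0.41 and the middle 90% between -1.37 and 1.47. Mir335 and Mir298 lay below the middle 50%, Mir296 and Mir675 above it but within the middle 90%, and Mir483 outside both ranges.

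**Figure D3:**
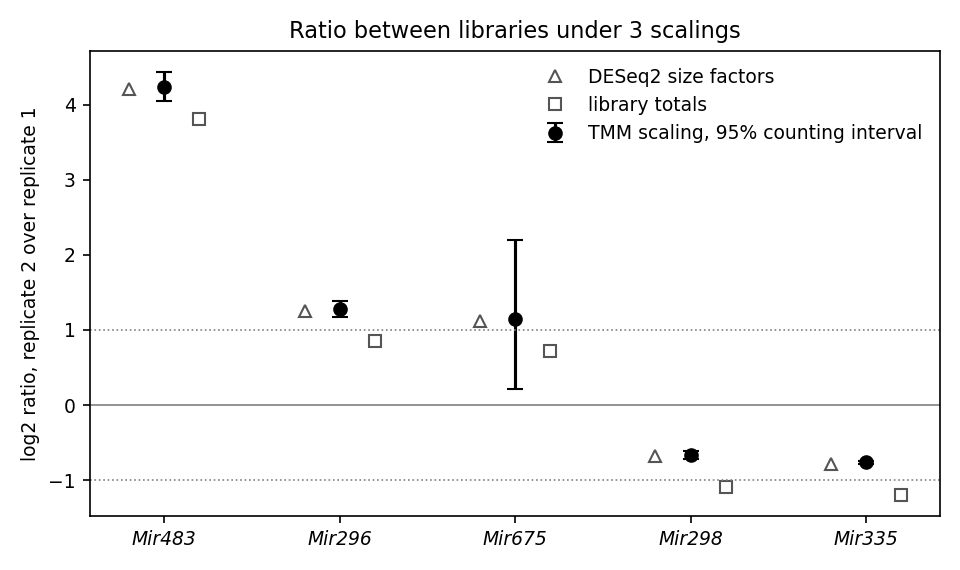
Log2 ratio of replicate 2 over replicate 1 for each gene, with TMM scaling as filled points and 95% counting intervals, DESeq2 size factors as triangles and library totals as squares. Dotted lines mark log2 ratios of 1 and -1. Mir483 stays far above them under each scaling, while the other 4 genes lie near a line and library totals move them across it.

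Ratios between genes of 1 library do not depend on the scaling. Of the 10 pairs among the 5 genes, Mir335 and Mir298 kept nearly the same ratio, with 7.04 counts of Mir335 for each of Mir298 in replicate 2 (exact 95% interval 6.82 to 7.27) and 7.56 in replicate 1 (7.38 to 7.75). The ratio in replicate 2 was 0.931 of that in replicate 1 (exact 95% interval 0.895 to 0.970). Mir675 and Mir296 likewise had a ratio of ratios of 0.927, with a wide interval of 0.476 to 1.89 set by the few counts of Mir675. Of all 10 pairs, Mir675 and Mir296 were the only one whose interval held 1. In replicate 2 the ratio of Mir483 to Mir335 was 32.1-fold higher than in replicate 1 (28.1 to 36.8), and that to Mir298 was 29.9-fold higher (26.0 to 34.4). The ratio of Mir483 to Mir675, its partner at the locus, was 8.40-fold higher (4.07 to 16.5) and that to Mir296 was 7.78-fold higher (6.67 to 9.11).

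Neither pair that shares a locus kept its ratio, neither Mir483 and Mir675 nor Mir296 and Mir298, while Mir335 and Mir298 from separate chromosomes nearly did. Mir296 and Mir298, whose hairpins are printed above, are the closer neighbours. For each count of Mir298 there were 0.497 counts of Mir296 in replicate 2 (exact 95% interval 0.472 to 0.523) and 0.129 in replicate 1 (0.121 to 0.139), a 3.84-fold gap (3.52 to 4.18). Among 71 pairs of detected neighbours on 1 strand under 1 kb apart, a comparison added after the values had been seen, the difference of the log2 ratios had a median of 0.69 and was at least 1 in 26 pairs. The difference of 1.94 between Mir296 and Mir298 ranked 4 of the 71. Among the 51 of these pairs with at least 100 counts of each gene in each library it ranked 3, and 18 of the 51 differed by at least 1, so unequal ratios of close neighbours were not rare in these libraries.

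**Figure D4:**
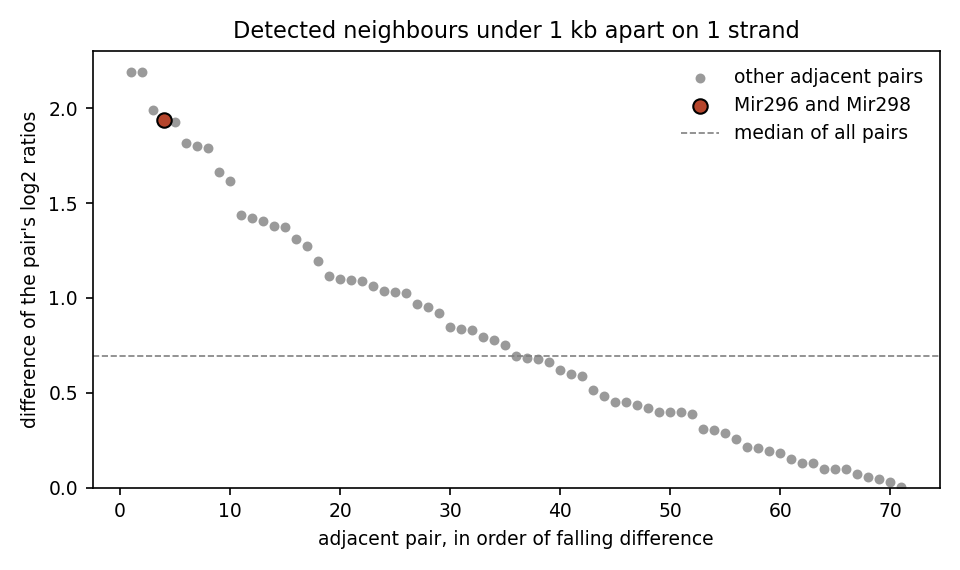
Absolute difference of the log2 ratios (replicate 2 over replicate 1) within each of 71 pairs of detected miRNA genes under 1 kb apart on 1 strand, in falling order, with the median of 0.69 as a dashed line. Mir296 and Mir298 rank 4, at 1.94.

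The other imprinted loci did not show ratios as wide as that of Mir483. Of the 67 genes between Dlk1 and Dio3, 50 were detected, 2 were called higher in replicate 2, 4 lower and 44 neither, with a median log2 ratio of -0.04 against -0.06 over all detected genes. Its called genes were Mir539, at a log2 ratio of 1.68, and Mir493, at 1.29, and on the lower side Mir376c, at -1.79, Mir410, at -1.65, Mir495, at -1.18, and Mir380, at -1.04. Of the 7 detected genes inside Sfmbt2, 0 were called higher, 1 lower and 6 neither, with a median of -0.24. The one called was Mir669e, from 12 counts in replicate 2 and 32 counts in replicate 1. Mir467d, at 0.996 on the log2 scale, fell just short of the fold threshold. Mir184 had a log2 ratio of -0.0035, within a 95% counting interval of -0.28 to 0.27.

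**Figure D5:**
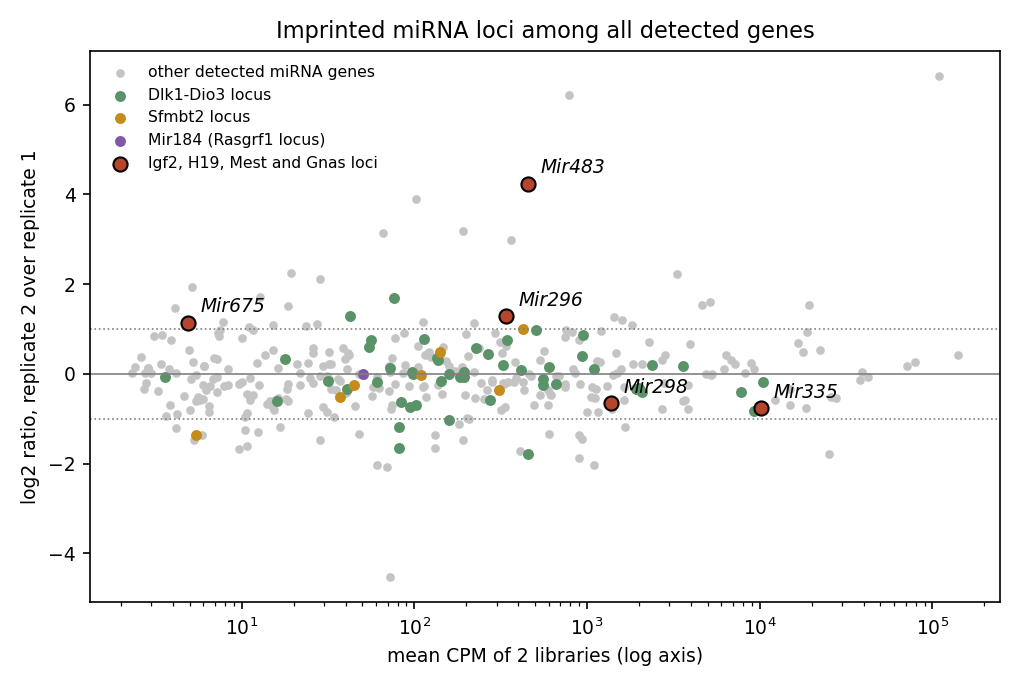
Log2 ratio of replicate 2 over replicate 1 against mean CPM (log axis) for the 358 detected miRNA genes, with the genes of the imprinted loci in colour and dotted lines at 1 and -1. Mir483, at 4.24, lies far above the genes of the other imprinted loci, whose highest is Mir539 at 1.68.

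The detected markers of liver, of kidney and gut, and of striated muscle were higher in replicate 2, as Mir483 was. The liver gene Mir122 was at 1080041 counts in replicate 2 and 10996 counts in replicate 1, a log2 ratio of 6.64. For kidney and gut, 2 of 4 listed genes were detected and both were higher in replicate 2, Mir192 at a log2 ratio of 4.28 and Mir194-2 at 3.18. Mir215 and Mir194-1 were not detected. Mir194-1 and Mir194-2 are numbered copies, so their counts may lack reads with several mapping places. The list summed to 1155 CPM in replicate 2 and 109 CPM in replicate 1. Of the striated muscle list, 2 of 10 genes were detected and both were higher, Mir206 at 6.22 and Mir499 at 1.93, and the list summed to 1569 CPM in replicate 2 and 32.7 CPM in replicate 1. Both libraries held 0 counts of the defining muscle genes Mir133a-1, Mir133a-2 and Mir1a-1, numbered copies that may lose reads to the rule on several mapping places.

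Markers of epithelium did not move as 1 group. Of 7 genes, Mir200b, at a log2 ratio of 3.90, Mir429, at 3.13, Mir200a, at 1.71, and Mir205, at 1.52, were higher in replicate 2. Mir141 was lower, at -1.48, and 2 were not called. The list summed to 1125 CPM in replicate 2 and 1590 CPM in replicate 1. Of these sums Mir203, which was not called, held 750 CPM in replicate 2 and 1465 CPM in replicate 1. Of the 3 genes of exocrine pancreas 0 were detected, and the list summed to 2.19 CPM in replicate 2 and 2.37 CPM in replicate 1, with Mir216b at 0 in both. The erythroid list had 1 of 3 genes lower, Mir451a, at a log2 ratio of -2.03, and the leukocyte list 1 of 5 lower, Mir142, at -1.44. Endothelial Mir126a and the 4 neuroendocrine genes were not called. The part of liver, kidney, gut or muscle RNA in the ratio of Mir483 was not tested.

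Among the markers, the proportion of Mir483 was computed to Mir192, Mir122, Mir206 and Mir194-2 alone. It was not computed to Mir499 or to the epithelial genes called higher, so other markers may have kept theirs. For each count of Mir192 there was 1.04 of Mir483 in replicate 2 (exact 95% interval 0.996 to 1.09) and 1.07 in replicate 1 (0.884 to 1.29). For each count of Mir122 there were 0.00396 of Mir483 in replicate 2 (0.00384 to 0.00408) and 0.0209 in replicate 1 (0.0183 to 0.0238). For each count of Mir206 there were 0.547 of Mir483 in replicate 2 (0.527 to 0.568) and 2.17 in replicate 1 (1.72 to 2.76). For each count of Mir194-2 there were 2.55 of Mir483 in replicate 2 (2.41 to 2.70) and 1.22 in replicate 1 (1.005 to 1.49). The proportion to Mir192 was the only one of these 4 whose intervals overlapped. Mir192 is also the detected gene nearest to Mir483 in level over the same 2 libraries. The overlap restates that closeness and is no separate result.

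The genes nearest to each of the 5 in level were found by the distance between their log2 values of CPM plus 1 over the 2 libraries, which describes closeness of level in 2 points and no more. Nearest to Mir483 were Mir192, at a distance of 0.111, and Mir301, at 0.917. Mir301, in the miR-130 and miR-301 family, had 622 CPM in replicate 2 and 106 CPM in replicate 1. Nearest to Mir335 was Mir411 of the Dlk1-Dio3 locus, at 0.223, followed by Mir99a, at 0.435. Nearest to Mir298 were Mir106b, at 0.087, and Mir16-1, at 0.281. Nearest to Mir296 were Mirlet7a-1, at 0.366, and Mir381 of the Dlk1-Dio3 locus, at 0.382, with the caution that Mirlet7a-1 and Mir16-1 have near-identical copies. Nearest to Mir675 were Mir1930, at 0.039, and Mir5131, at 0.363, each with 14 to 32 counts in a library.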

How the data were processed

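The deposited values are raw counts per miRNA gene as the authors made them, 1 table per library and not normalized. The text files deposited with the tables name build mm10 and GENCODE M21, to which all gene identifiers matched. What aligned, counted and trimmed the reads was not given in the sources used here. All 4 summary lines were not used in library sizes. They held 23.9% unmapped reads in replicate 2 and 26.9% in replicate 1, 6.12% and 9.65% on no feature in that order, and at most 8.9e-06% ambiguous reads. Of 3 unlabelled count columns, the middle one was taken by its position as the gene's own strand. Its total over miRNA genes was above that of the last column in both libraries.

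From these counts, CPM, Wilson intervals, TMM factors (0.862 for replicate 2, 1.16 for replicate 1), log2 ratios with a prior count of 0.5 and exact 95% binomial intervals were computed. The 5 genes and all lists were chosen with earlier results of these data known. Named genes are these 5, miRNA genes within 100 kb, any sharing a seed, the 2 nearest in level to each, the 3 most abundant of each other imprinted locus, and markers of other cell types. Values are given for the called markers and for Mir203, and the other markers enter by sum or status. The called genes of those loci were added with their values known. The edgeR biological coefficient of variation was 0.444. The quasi-likelihood test of edgeR needs replicates on both sides and could not be run. The binomial test was run on data simulated with counting noise alone, which does not bear on spread between animals. Alternatives were other scalings, prior counts, count minimums, strand columns and edgeR's exact test. Tools were R 4.3.3 with edgeR 4.0.16 and DESeq2 1.42.0, and Python 3.11.15 with scipy 1.17.1, numpy 2.4.6, matplotlib 3.10.9 and pandas 2.3.3.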

Additional observations from a re-analysis of the deposited data

How the results depend on the processing

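The 5 log2 ratios kept their sign under DESeq2 size factors, library totals, a prior count of 5, the unstranded column, count minimums of 1 and 100, TMM without Mir122, TMM without the liver, kidney, gut, muscle and epithelial markers (added after seeing the data), and edgeR's exact test; Mir675 was not tested at a minimum of 100. Count minimums change which genes are tested and not the ratios, so they could not alter a sign. TMM without Mir122 also left the ratios unchanged. TMM sets aside the genes with the most extreme ratios, and Mir122 had the highest, so this setting could not test them either. Mir483 was called in each setting. With library totals, Mir675 at 0.72 and Mir296 at 0.85 were no longer called, while Mir335 at -1.19 and Mir298 at -1.09 were. Mir675 was also lost with a prior count of 5, at 0.94, and in edgeR's exact test, at 1.16, where Mir296, at 1.28, was lost too. Library totals lowered the median log2 ratio of all detected genes to -0.48, of Dlk1-Dio3 to -0.46 and of Sfmbt2 to -0.67. Against 33 genes called higher and 31 lower, library totals gave 18 and 78, a count minimum of 100 gave 18 and 19 with fewer genes tested, and edgeR's exact test gave 5 and 1. Leaving out replicate 1 or 2 leaves 1 library and no ratio. Mean CPM with replicate 1 or replicate 2 left out ranged from 60.6 to 850 for Mir483, 3.69 to 6.16 for Mir675, 6220 to 14213 for Mir335, 243 to 439 for Mir296 and 883 to 1880 for Mir298. Taking the most abundant gene out of each total removed Mir122 in replicate 2 and Mir126a in replicate 1. Mean CPM was then 12244 for Mir335, 1658 for Mir298, 576 for Mir483, 421 for Mir296 and 6.07 for Mir675. With few counts, the ratio of Mir675 is known only to within an interval of 0.22 to 2.19.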
